A study of Homo sapiens with 6 samples.

Results

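The 10 genes described are those of 5 beta-tubulins (TUBB, TUBB2A, TUBB3, TUBB4B and TUBB6), 3 alpha-tubulins (TUBA1A, TUBA1B and TUBA1C) and 2 stathmins (STMN1 and STMN3), taken by symbol from the 28452 genes obtained when transcript counts were summed per gene. All 10 passed the filter on low counts and belong to the 17115 genes tested. RNA sequencing had been performed on 6 libraries of A549, an established human lung adenocarcinoma line, whose cells had been infected with lentivirus to express a short hairpin RNA stably. The titles give 3 groups of 2 libraries: shCBX8-1 and shCBX8-2, whose genotype is labelled CBX8 knockdown, and a control. Every group therefore carries a lentiviral hairpin vector, and neither the sequence of the control hairpin nor what the first number of a knockdown title stands for is stated. Since separate cultures are not mentioned for the 2 libraries of any group, p-values measure only the spread between these samples, and that spread may be technical.

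Microtubules are polymers of alpha- and beta-tubulin heterodimers. Vertebrate cells hold several genes, or isotypes, for each subunit, whose products differ mostly in the acidic C-terminal tail that binds motor proteins and carries post-translational modifications. Stathmins bind free tubulin dimers and promote microtubule shrinkage: stathmin 1 is abundant in dividing cells and is inactivated by phosphorylation in mitosis, and stathmin 3 is best known from neurons. Tubulin mRNA is autoregulated: when free dimers are in excess, the first residues of the nascent tubulin chain are recognised on the ribosome and the mRNA is degraded. CBX8 is a chromobox subunit of Polycomb repressive complex 1, which represses genes in chromatin.

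The start of the coding sequence is shown because the degradation signal of autoregulated tubulins is encoded there. In these sequences, read 5′ to 3′ from the GENCODE v29 transcripts of GRCh38, the capitals mark the first 4 codons and the whole run has 30 bases.
TUBB: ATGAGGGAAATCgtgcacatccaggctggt
TUBB2A: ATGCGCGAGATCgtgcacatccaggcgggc
TUBB3: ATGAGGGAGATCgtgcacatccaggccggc
TUBB4B: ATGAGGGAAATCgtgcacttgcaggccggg
TUBB6: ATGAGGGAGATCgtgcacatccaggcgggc
TUBA1A, TUBA1B and TUBA1C: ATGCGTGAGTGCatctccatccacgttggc
The 3 alpha-tubulins were identical over these 30 bases, and the 5 beta-tubulins each had a run of their own. The beta runs lie on the plus strand at chr6:30720507-30720536 for TUBB, chr16:89923402-89923431 for TUBB3, chr9:137241361-137241390 for TUBB4B and chr18:12308293-12308322 for TUBB6, and on the minus strand at chr6:3157434-3157463 for TUBB2A, each inside the first coding exon. Those of the alpha-tubulins are interrupted by an intron.

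The end of the coding sequence, without the stop codon, is where the isotypes differ most, and it is shown for 4 beta-tubulins that rose. The capitals mark the stretch that encodes the acidic tail, and the lower-case bases are those just before it, which differ between the genes at some positions.
TUBB: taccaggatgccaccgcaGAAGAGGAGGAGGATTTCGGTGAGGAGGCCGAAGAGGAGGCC
TUBB3: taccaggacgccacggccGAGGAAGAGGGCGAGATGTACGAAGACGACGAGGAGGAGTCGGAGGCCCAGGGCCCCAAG
TUBB4B: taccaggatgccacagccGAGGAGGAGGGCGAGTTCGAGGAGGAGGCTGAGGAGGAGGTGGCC
TUBB6: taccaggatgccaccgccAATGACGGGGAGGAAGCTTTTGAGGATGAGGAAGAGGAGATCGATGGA
These runs lie in the last exon, on the plus strand at chr6:30724335-30724394 for TUBB, chr16:89935724-89935801 for TUBB3, chr9:137243491-137243553 for TUBB4B and chr18:12326062-12326127 for TUBB6.

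Because the isotypes resemble each other, counts can be split between them. Over the whole coding sequence the alpha-tubulins were 95.9 to 97.2% identical, the beta-tubulins 80.9 to 87.8%, and the 2 stathmins 52.8%. In the main transcript of each gene, the share of 75-base windows also found in a transcript of another gene was 89.2% for TUBB3, 60.4% for TUBB2A, 48.4% for TUBA1B, 27.1% for TUBA1A, 17.0% for TUBA1C, 8.44% for TUBB and 5.37% for TUBB4B, against 0 windows for TUBB6, STMN1 and STMN3. For TUBB3 all 1512 of those windows were found in AC092143.1, a protein-coding gene annotated on the same strand over 89.5% of the TUBB3 transcript, and for TUBB2A 864 of 918 were found in TUBB2B. Genes annotated on the opposite strand overlap 72.6% of the TUBA1B transcript, 22.2% of TUBA1C, 20.1% of TUBB, 13.0% of TUBA1A (by TUBA1C) and 7.57% of TUBB4B, and the labels do not say whether counting used strand. The levels of TUBB6, STMN1 and STMN3 are therefore the least open to shared reads, and those of TUBB2A, TUBB3 and the alpha-tubulins are uncertain to that extent.

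Gene coordinates below are those of RefSeq for GRCh38.p14. Library totals ran from 64197784 to 67169537 estimated counts, and the members had 2193 to 241360 raw counts per library. CBX8, the targeted gene, was at 7.79 and 7.70 CPM (counts scaled to a common library total with TMM factors) in shCBX8-1, 17.7 and 13.8 CPM in shCBX8-2, and 24.6 and 26.3 CPM in control. All 4 knockdown libraries were below both controls, and the log2 difference was -1.72 ± 0.16 for shCBX8-1 and -0.69 ± 0.15 for shCBX8-2 (SE, edgeR adjusted p = 0.00708 and 0.0297). The epithelial keratins KRT8 and KRT18 were at 8120 CPM or more in every library. KRT7 ran from 1852 to 2576 CPM. The remaining epithelial markers were far lower. CDH1 was at 10.4 to 21.8 CPM, CLDN4 at 7.10 to 13.0 CPM and KRT19 at 0.359 to 4.11 CPM. Of the leukocyte markers, the T cell gene CD3E was at 0 in all 6, while CD68 ran from 80.3 to 121 CPM and CORO1A from 7.01 to 19.9 CPM. Of the neuronal and neuroendocrine markers, DCX, ELAVL4, GAP43 and INSM1 were at 0 in all 6. Over the libraries INA ran from 47.1 to 75.2 CPM, ENO2 from 38.2 to 46.9 CPM, RBFOX3 from 4.10 to 24.5 CPM and SYP from 5.13 to 8.45 CPM. NEFL differed by group, with 55.9 and 54.2 CPM in shCBX8-1 and 20.3 and 18.3 CPM in shCBX8-2, against 37.8 and 41.2 CPM in control. Replicates lay 0.182 log2 apart at the median gene in shCBX8-2 and 0.105 apart in both shCBX8-1 and control. A gene's offset from its 6-library mean correlated with its GC content (Spearman, across 16054 genes, which are not independent replicates) at 0.381 in shCBX8-2 replicate 1, -0.274 in shCBX8-2 replicate 2 and between -0.183 and -0.0258 in the others. GC content of the members' transcripts ranged from 43.8% (STMN1) to 63.1% (STMN3), and its part in their values was not tested.

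RNA of most of these 10 tubulin and stathmin genes was higher in CBX8 knockdown cells. Of the 10 members, 8 rose in the mean of both knockdown groups against control (adjusted p under 0.05), 0 fell, and TUBB2A and TUBA1A did not pass. Over all genes tested, 6.79% were called in that comparison, 3.31% higher and 3.48% lower. The members were chosen with earlier results of these data known, so these shares do not test the gene family. Of 12 other tubulin and stathmin genes tested, 1 rose and 1 fell, and their median log2 difference was 0.10. The members' median log2 difference was 0.51, with a range from 0.23 to 0.80, beside a median of -0.04 over all 17115 genes. In 9 of 10 members every knockdown library lay above both controls, an arrangement found in 13.2% of all genes. More cells of a kind and more RNA per cell cannot be told apart in such bulk libraries.

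**Figure D1:**
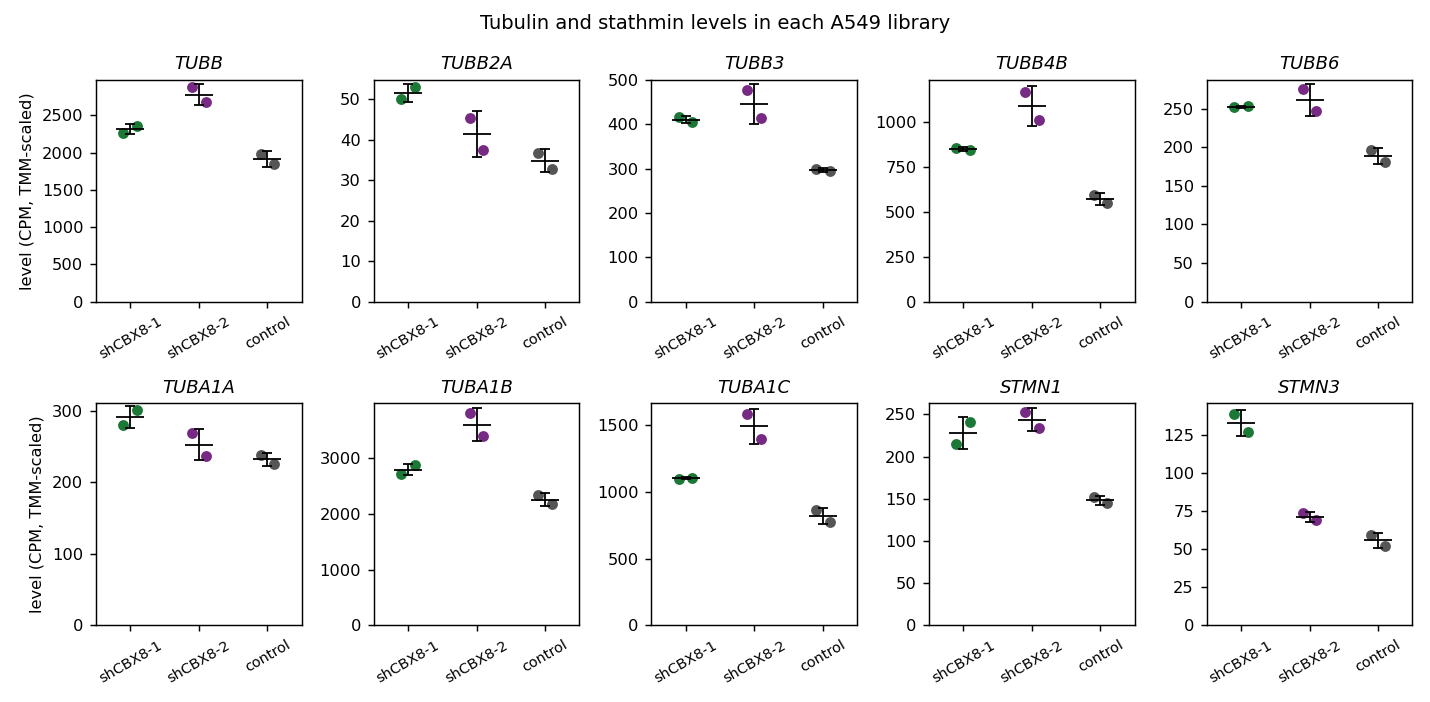
Level of each tubulin and stathmin gene (CPM, linear axis from 0) in the 2 libraries of shCBX8-1, shCBX8-2 and control. Points are libraries and bars the mean ± SD (n = 2). In 9 of 10 panels all knockdown points lie above both control points, and TUBA1A is the exception.

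Among the beta-tubulins, TUBB4B (gene 10383, chr9:137241287-137243707, plus strand), a broadly expressed isotype also used in cilia, had 854 and 841 CPM in shCBX8-1 and 1167 and 1010 CPM in shCBX8-2, against 592 and 548 CPM in control. The groups did not overlap, and shCBX8-2 was highest. TUBB4B rose in both groups, by 0.57 ± 0.08 in shCBX8-1 and 0.93 ± 0.08 in shCBX8-2 (log2, SE, adjusted p = 0.0272 and 0.0026). Its mean was 149% of the control mean in shCBX8-1 and 191% in shCBX8-2.

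TUBB (gene 203068, chr6:30720352-30725422, plus strand), the common beta-tubulin of dividing cells, had 2268 and 2361 CPM in shCBX8-1 and 2878 and 2674 CPM in shCBX8-2, against 1985 and 1840 CPM in control. Its groups did not overlap either. It rose in shCBX8-2 by 0.54 ± 0.07 (adjusted p = 0.0051), and its difference of 0.28 ± 0.07 in shCBX8-1 did not pass (adjusted p = 0.0865). TUBB is listed in 56 entries, of which 49 are repeated accessions, and 8 of them are copies of its main transcript. Raw counts of a copy, not scaled to library totals, differed by group mean in the same direction in all 8, at 1.09 to 1.21 times control in shCBX8-1 and 1.35 to 1.45 times in shCBX8-2, although copy 2 had 10933 counts in shCBX8-1 replicate 1, against 12193 and 12825 in control. Copy 5 took 22.4% of the 8 and the others 9.98 to 12.9% each. Reads that match several copies may be split among them or counted more than once, so the summed level of TUBB is uncertain, while its log2 difference without repeated accessions was 0.29 in shCBX8-1 and 0.53 in shCBX8-2.

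TUBB3 (gene 10381, chr16:89921925-89936097, plus strand), the class III beta-tubulin of neurons that many carcinoma lines also express, had 416 and 406 CPM in shCBX8-1 and 478 and 414 CPM in shCBX8-2, against 299.6 and 294 CPM in control. Both knockdown groups were above control and overlapped each other. TUBB3 rose by 0.47 ± 0.08 in shCBX8-1 and 0.59 ± 0.08 in shCBX8-2 (adjusted p = 0.043 and 0.0079). The whole list of 22 neuronal and neuroendocrine markers summed to 1007 to 1025 CPM in shCBX8-1 and 886 to 978 CPM in shCBX8-2, against 993 to 1002 CPM in control. UCHL1, a deubiquitinase common in cell lines, made up 666 to 763 CPM of it. REST, a repressor of neuronal genes, is also on the list, at 10.8 to 24.1 CPM. The sum and the counts of this list are therefore not of neuronal markers alone. Of the 16 markers tested, L1CAM, an adhesion molecule, rose in the mean of both knockdown groups (0.92 ± 0.10, adjusted p = 0.0083). RBFOX3, a neuronal splicing factor, and CHGB, a secretory granule protein, fell there by 1.82 ± 0.18 and 1.08 ± 0.14 (adjusted p = 0.00678 and 0.011). By group, 1 of the 16 rose and 1 fell in shCBX8-1, and 2 rose and 3 fell in shCBX8-2. Over all genes 3.31% rose and 3.48% fell in the mean of both groups. The shares were 1.34% and 1.13% in shCBX8-1, and 6.03% and 6.64% in shCBX8-2.

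TUBB6 (gene 84617, chr18:12307669-12329826, plus strand), a beta-tubulin with low levels in most tissues, had 251 and 253 CPM in shCBX8-1 and 276 and 246 CPM in shCBX8-2, against 196 and 181 CPM in control. Both knockdown groups lay above control. It rose by 0.47 ± 0.08 in shCBX8-2 (adjusted p = 0.0158), whereas the difference of 0.42 ± 0.08 in shCBX8-1 missed the threshold (adjusted p = 0.0565).

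TUBB2A (gene 7280, chr6:3153666-3157544, minus strand), an isotype prominent in brain, had 50.0 and 53.1 CPM in shCBX8-1 and 45.4 and 37.5 CPM in shCBX8-2, against 36.7 and 32.8 CPM in control. The knockdown libraries were all above control, with shCBX8-2 replicate 2 only slightly so. Its differences, 0.57 ± 0.12 in shCBX8-1 and 0.25 ± 0.12 in shCBX8-2, did not pass (adjusted p = 0.0717 and 0.23). TUBB2B, its neighbour in sequence, was at 31.8 and 34.1 CPM in shCBX8-1 and 21.0 and 20.9 CPM in shCBX8-2, against 21.9 and 23.0 CPM in control, so it too was highest in shCBX8-1.

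Turning to the alpha-tubulins, TUBA1B (gene 10376, chr12:49127782-49131395, minus strand), a ubiquitous isotype, had 2720 and 2865 CPM in shCBX8-1 and 3804 and 3394 CPM in shCBX8-2, against 2332 and 2177 CPM in control. The 3 groups were separate, with control lowest. TUBA1B rose by 0.67 ± 0.07 in shCBX8-2 (adjusted p = 0.00396), and its 0.31 ± 0.07 in shCBX8-1 did not pass (adjusted p = 0.0858).

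TUBA1C (gene 84790, chr12:49227926-49274600, plus strand), another widely expressed isotype, had 1095 and 1107 CPM in shCBX8-1 and 1581 and 1399 CPM in shCBX8-2, against 863 and 777 CPM in control. The order of the groups was that of TUBA1B. In shCBX8-2 the rise was 0.86 ± 0.08 (adjusted p = 0.00299), to 182% of the control mean, and the 0.43 ± 0.08 of shCBX8-1 missed the threshold (adjusted p = 0.0516).

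TUBA1A (gene 7846, chr12:49184795-49189080, minus strand), the isotype of developing neurons, had 281 and 302 CPM in shCBX8-1 and 268 and 237 CPM in shCBX8-2, against 239 and 225 CPM in control. Replicate 2 of shCBX8-2 lay between the controls. The differences of 0.33 ± 0.09 in shCBX8-1 and 0.12 ± 0.09 in shCBX8-2 did not pass (adjusted p = 0.116 and 0.394).

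Of the stathmins, STMN3 (gene 50861, chr20:63639712-63653424, minus strand) had 139 and 127 CPM in shCBX8-1 and 73.6 and 69.1 CPM in shCBX8-2, against 59.5 and 52.3 CPM in control. The 3 groups were separate, and shCBX8-1 stood far above the others, at 238% of the control mean. STMN3 rose by 1.25 ± 0.10 in shCBX8-1 (adjusted p = 0.00477), and its 0.35 ± 0.10 in shCBX8-2 did not pass (adjusted p = 0.0611). A non-coding transcript entry of the gene held 19.8 to 25.4% of its counts in the knockdown libraries, against 33.2 and 7.94% in control.

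STMN1 (gene 3925, chr1:25884179-25906880, minus strand) had 215 and 241 CPM in shCBX8-1 and 253 and 234 CPM in shCBX8-2, against 152 and 145 CPM in control. Both knockdown groups were above control and overlapped each other. STMN1 rose by 0.62 ± 0.09 in shCBX8-1 and by 0.72 ± 0.09 in shCBX8-2 (adjusted p = 0.025 and 0.00509). A second coding transcript entry took 13.7% of its counts in shCBX8-2 replicate 2 and 1.74 to 2.26% in the other 5 libraries.

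**Figure D2:**
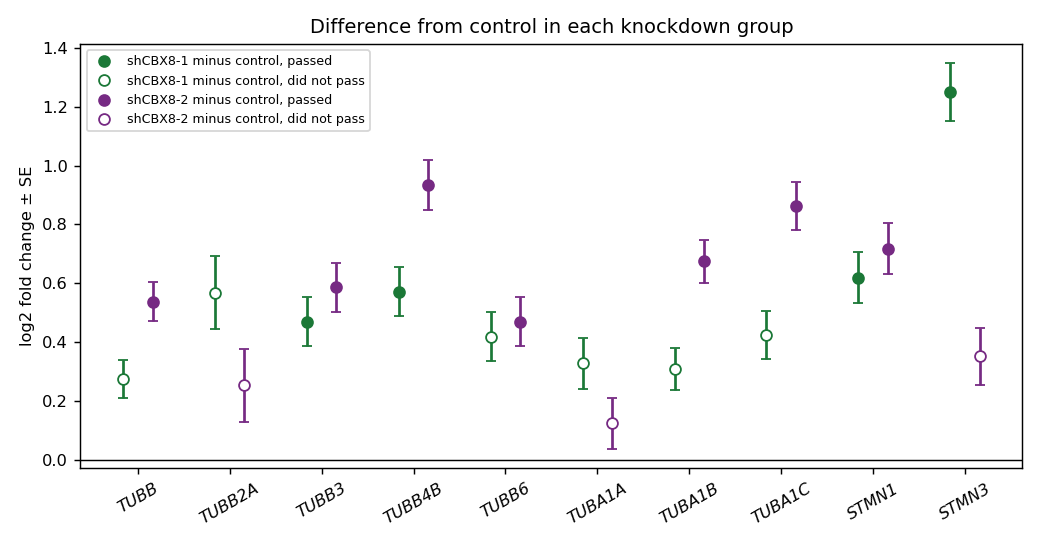
Log2 fold change ± SE of each member in shCBX8-1 (left of each pair) and shCBX8-2 (right), both against the same control libraries. Filled points passed an adjusted p of 0.05, 4 in shCBX8-1 and 7 in shCBX8-2, and open points did not.

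By knockdown group, 4 members rose in shCBX8-1 (TUBB3, TUBB4B, STMN1 and STMN3) and 7 in shCBX8-2 (TUBB, TUBB3, TUBB4B, TUBB6, TUBA1B, TUBA1C and STMN1), with 0 lower in either. Over all genes, 2.47% were called in shCBX8-1, 1.34% higher and 1.13% lower, and 12.7% in shCBX8-2, 6.03% higher and 6.64% lower. TUBB3, TUBB4B and STMN1 rose in both, as did 0.771% of all genes; the comparisons share the control libraries. Members' medians were 0.45 in shCBX8-1 and 0.56 in shCBX8-2.

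Leaving out 1 library kept every member's direction against control but not the calls. In the mean of both knockdown groups the largest difference, that of STMN3, ran from 0.71 to 0.90 over these fits. The smallest, that of TUBA1A, ran from 0.18 to 0.27. Every member call in that mean ended without any one control or shCBX8-1 library and stood without either shCBX8-2 library. Calls over all genes fell and rose in the same omissions, so these shifts are not particular to the members. Leaving out a control or shCBX8-1 library also ended the member calls in shCBX8-1. In shCBX8-2 some calls ended without either control, while those of TUBB4B and TUBA1C stood each time. Calls over all genes fell in these fits too. A group left with 1 library was assumed to vary like the other groups.

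The test of shCBX8-2 against shCBX8-1 separated the members. TUBB4B, TUBA1B and TUBA1C were higher in shCBX8-2, by 0.36 ± 0.08, 0.37 ± 0.07 and 0.44 ± 0.08 (adjusted p = 0.0441, 0.0273 and 0.0233), and STMN3 was lower there by 0.90 ± 0.10 (log2 difference -0.90, adjusted p = 0.00449). In this comparison 9.82% of all genes were called, 4.05% higher and 5.77% lower. The other 6 members did not pass, with TUBB at 0.26 ± 0.07 (adjusted p = 0.0517). TUBB2A and TUBA1A had point estimates on the side of STMN3, at -0.31 ± 0.12 and -0.20 ± 0.09. Without shCBX8-1 replicate 1 every member call ended, and without shCBX8-1 replicate 2 only that of STMN3 stood. Without either control those of TUBA1C and STMN3 stood. Calls over all genes fell in each of these fits too.

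As a description over the 6 libraries, the log2 levels of TUBB, TUBB3, TUBB4B, TUBB6, TUBA1B, TUBA1C and STMN1 correlated with each other at Pearson's r of 0.89 to 0.998, and those of TUBB2A, TUBA1A and STMN3 at 0.91 to 0.992, while r between the first 7 and the last 3 was 0.234 to 0.785. These points share libraries and depth, and much of r follows the group means. Among 9912 genes with a mean of at least 10 CPM that are no members, the 2 most like each member reached r of 0.991 to 0.9996. They were LAMA3 and MOCOS for TUBB, SLC38A12 and CMTM3 for TUBB2A, TIMP2 and TFDP1 for TUBB3, BIN1 and PDAP1 for TUBB4B, and CDC20 and BCCIP for TUBB6. For the alpha-tubulins they were C19orf25 and MUS81 (TUBA1A), MOCOS and KNSTRN (TUBA1B), and RPS6KA4 and SFN (TUBA1C), and for the stathmins STT3A and RNF139 (STMN1) and STK10 and ALPK2 (STMN3). The number of genes with r over 0.95 ran from 36 for TUBA1A to 428 for TUBA1B.

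Levels of different genes were compared per kilobase of the main transcript. In control, TUBA1B was highest at 1386 ± 67.4 CPM per kb (SD, n = 2), followed by TUBB at 716 ± 38.5, TUBB4B at 348 ± 18.9, TUBA1C at 273 ± 20.1, TUBB3 at 168 ± 2.33 and TUBA1A at 121 ± 5.00 CPM per kb. STMN1 at 98.6 ± 3.46 and TUBB6 at 91.4 ± 5.30 CPM per kb were within the sum of their SDs, as were STMN3 at 24.8 ± 2.24 and TUBB2A at 21.8 ± 1.76 CPM per kb. Without repeated accessions TUBB was at 93.6 ± 4.64 CPM per kb in control, below TUBB3 and TUBA1A, so its place in this order is uncertain.

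The summed beta-tubulin genes reached 3876 ± 52.6 CPM in shCBX8-1 and 4612 ± 328 CPM in shCBX8-2, against 3002 ± 151 CPM in control (SD, n = 2), or 1.29 and 1.54 times control. The summed alpha-tubulin genes reached 4185 ± 126 CPM in shCBX8-1 and 5342 ± 441 CPM in shCBX8-2, against 3306 ± 180 CPM in control, or 1.27 and 1.62 times control. The 2 sums thus differed from control by like ratios, with no test of the sums. They hold the members alone, without TUBA4A, TUBB2B or TUBB4A. Per kilobase, TUBA1B made up 76.8% of the alpha sum in shCBX8-1 and 77.9% in both shCBX8-2 and control. TUBB4B made up 29.2% of the beta sum in shCBX8-1 and 31.5% in shCBX8-2, against 25.9% in control, and TUBB 48.9% and 49.3%, against 53.2% in control. With repeated accessions dropped the beta sum was 1.40 and 1.63 times control in shCBX8-1 and shCBX8-2, and the alpha sum 1.28 and 1.60 times. The likeness of the ratios in shCBX8-1 was then less close. TUBB4B was then the largest beta isotype, at 51.0% in shCBX8-1 and 55.3% in shCBX8-2, against 48.4% in control.

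**Figure D3:**
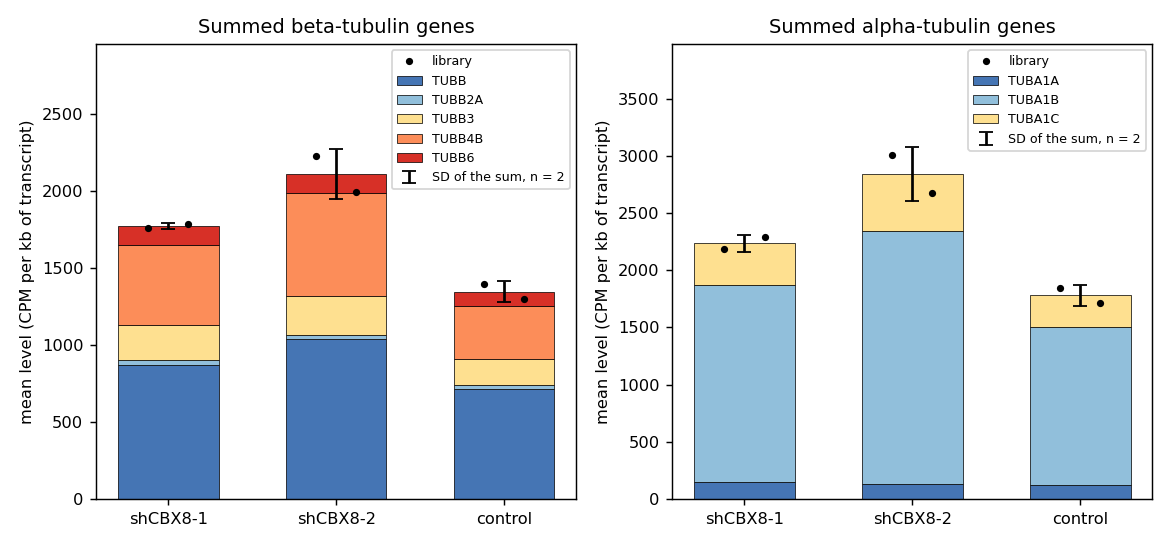
Summed beta-tubulin (left) and alpha-tubulin (right) levels as CPM per kb of transcript, stacked by gene, for shCBX8-1, shCBX8-2 and control. Bars are group means, points the sum in each library and error bars the SD of the sum (n = 2). Both sums are higher in the knockdown groups, and TUBA1B is 76.8 to 77.9% of the alpha sum.

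The promoters of TUBB4B and TUBA1C are shown because these members had the largest differences among the tubulins in the mean of both knockdown groups and in shCBX8-2. In shCBX8-1, TUBA1C was below TUBB2A and TUBB3. Each is a RefSeq promoter window (GRCh38.p14) that contains the start of the gene's main transcript, on the plus strand, at chr9:137241037-137241336 and chr12:49264832-49265131. The TUBA1C window lies inside the RefSeq span of the gene, which begins at an earlier position. Capitals mark CCAAT, the element bound by NF-Y, and TTTGAA, the core of the cell cycle homology region found in promoters of late cell cycle genes, searched on both strands.
TUBB4B: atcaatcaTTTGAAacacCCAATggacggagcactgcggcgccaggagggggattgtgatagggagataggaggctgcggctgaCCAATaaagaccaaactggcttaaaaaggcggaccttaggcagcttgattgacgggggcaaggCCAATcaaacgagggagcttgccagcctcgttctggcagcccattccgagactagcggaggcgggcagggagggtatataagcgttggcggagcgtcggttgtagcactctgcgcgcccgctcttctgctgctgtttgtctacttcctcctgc
TUBA1C: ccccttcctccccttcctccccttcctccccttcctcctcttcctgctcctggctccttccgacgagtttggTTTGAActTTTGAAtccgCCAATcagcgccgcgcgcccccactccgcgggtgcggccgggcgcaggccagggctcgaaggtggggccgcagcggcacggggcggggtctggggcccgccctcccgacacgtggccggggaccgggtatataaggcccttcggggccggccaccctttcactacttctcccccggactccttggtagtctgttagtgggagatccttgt
CCAAT was present in the windows of 7 of 10 members, against 34.6% of 35116 windows of the same length. The STMN3 window, unlike those of the other members, does not contain the start of the main transcript, which lies 661 bases from the start used for that window. TTTGAA was present in 2 of 10, TUBB4B and TUBA1C, against 15.2% of all. GGGCGG, the GC box, was in 8 of 10 and in 45.0% of all, TATAAA in TUBB2A alone of the members and in 11.5% of all, and TTTCCCGC or TTTGGCGC, an E2F element, in STMN1 alone of the members and in 2.27% of all. A match describes letters in a window and is no measure of binding.

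Other tubulin and stathmin genes were mostly low or did not pass. Of 16 listed, 12 were tested, 1 rose and 1 fell in the mean of both knockdown groups, and the median difference was 0.10. Over all genes 3.31% rose and 3.48% fell there. TUBB4A, a brain beta-tubulin, fell: it had 20.9 and 21.7 CPM in shCBX8-1 and 8.92 and 9.28 CPM in shCBX8-2, against 25.6 and 25.9 CPM in control, a log2 difference of -0.89 ± 0.09 (adjusted p = 0.00755). TUBG1, the gamma-tubulin of centrosomes, rose by 0.27 ± 0.06 (adjusted p = 0.048). By group, TUBB4A and TUBG1 each passed in shCBX8-2 alone. TUBA4A had 204 and 208 CPM in shCBX8-1 and 215 and 194 CPM in shCBX8-2, against 174 and 155 CPM in control, and did not pass (0.32 ± 0.08, adjusted p = 0.0563). The log2 difference was 0.23 ± 0.09 for TUBB2B, 0.11 ± 0.08 for TUBG2, 0.10 ± 0.14 for TUBD1, -0.44 ± 0.21 for TUBE1, -1.24 ± 0.46 for TUBAL3 and 0.03 ± 0.30 for TUBA8, none of which passed. TUBB1, TUBB8 and TUBA3D averaged under 1 CPM in each group, and TUBA3C, TUBA3E, STMN2 and STMN4 had 0 to 8 counts in all 6 libraries together and were not tested. Without any one control or shCBX8-1 library neither call in the mean of both knockdown groups stood, and calls over all genes fell too.

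Genes that act on tubulin were described by list, for the mean of both knockdown groups against control. Among 21 genes for tubulin folding (prefoldin, the CCT chaperonin and the cofactors), 0 rose and 0 fell by edgeR, 5 had an unadjusted p under 0.05, and the DESeq2 Wald test called 3 higher and 0 lower. CCT5, a chaperonin subunit, had the second smallest p of the list, with 0.20 ± 0.06 (adjusted p = 0.0818), after PFDN1 with 0.31 ± 0.08 (adjusted p = 0.0626), and PFDN4 was at -0.34 ± 0.11 (adjusted p = 0.128). The 12 genes of tubulin mRNA autoregulation, including subunits of the CCR4-NOT deadenylase, had a median of 0.09 and 0 calls by edgeR or DESeq2, with 1 at an unadjusted p under 0.05. CNOT10 was at 0.24 ± 0.09, CNOT3 at 0.14 ± 0.07 and CNOT2 at 0.12 ± 0.07. Of 21 tested enzymes that modify tubulin, 0 passed by edgeR, 7 had an unadjusted p under 0.05, and DESeq2 called 2 higher and 3 lower. TTLL12 was at 0.34 ± 0.08, TTLL11 at 0.87 ± 0.21 and AGBL5, a deglutamylase, at -0.30 ± 0.08. By group, 0 genes of these lists passed in shCBX8-1. In shCBX8-2, 3 of the 21 folding genes rose, CCT5 and PFDN1 among them, and 0 fell. Of the 12 autoregulation genes CNOT10 alone passed there, and rose. Of the 21 enzymes 2 rose there, TTLL11 and TTLL12, and 1 fell. Over all genes 6.03% rose and 6.64% fell in shCBX8-2.

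Of 20 genes of the gamma-tubulin complex and augmin, which nucleate microtubules, 3 rose and 0 fell, beside 3.31% and 3.48% of all genes. They were HAUS5 (0.44 ± 0.09), CDK5RAP2 (0.31 ± 0.07) and HAUS8 (0.53 ± 0.12), with edgeR adjusted p = 0.0339, 0.0441 and 0.046. By group, 0 of the 20 passed in shCBX8-1 and 5 rose in shCBX8-2, where 6.03% of all genes rose. CDK5RAP2 was at 0.07 in shCBX8-1 (adjusted p = 0.733) and 0.55 in shCBX8-2 (adjusted p = 0.00766). Among 24 tested microtubule-associated and end-binding proteins, 1 rose and 2 fell. DCLK1, a doublecortin-like kinase, rose by 1.32 ± 0.15 (adjusted p = 0.0083), with 16.9 and 14.9 CPM in shCBX8-1 and 17.5 and 22.9 CPM in shCBX8-2, against 7.18 and 7.16 CPM in control. CLIP2, a linker protein of growing ends, and TACC2 fell by 0.53 ± 0.08 and 0.45 ± 0.07 (adjusted p = 0.0162 and 0.0177). CLIP2 passed in shCBX8-2 alone and TACC2 in shCBX8-1 alone. By group, 2 of the 24 rose and 1 fell in shCBX8-1, and 2 rose and 5 fell in shCBX8-2. Over all genes 1.34% rose and 1.13% fell in shCBX8-1, and 6.03% rose and 6.64% fell in shCBX8-2. Of 13 tested severing and depolymerising proteins, KIF18B, a mitotic depolymerising kinesin, rose by 0.42 ± 0.07 (adjusted p = 0.0185). KIF18B was at 0.15 in shCBX8-1 (adjusted p = 0.367) and 0.68 in shCBX8-2 (adjusted p = 0.00408). KIF24 and KIF2C, at 0.58 ± 0.14 and 0.30 ± 0.07 in the mean of both groups, did not pass (adjusted p = 0.0533 and 0.0554). In shCBX8-2 both rose, by 0.74 and 0.51 (edgeR adjusted p = 0.0265 and 0.0114). By group, 0 of the 13 passed in shCBX8-1, and 3 rose and 0 fell in shCBX8-2.

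Genes of the spindle and mitosis were higher together with the tubulins. Of 31, 19 rose and 0 fell in the mean of both knockdown groups, with a median of 0.47, beside 3.31% higher and 3.48% lower among all genes. MKI67, a marker of cycling cells, had 297 and 301 CPM in shCBX8-1 and 405 and 388 CPM in shCBX8-2, against 228 and 221 CPM in control, and rose by 0.62 ± 0.06 (adjusted p = 0.00597). KIF20A, a kinesin of cytokinesis, rose by 0.70 ± 0.07 and SPAG5, a spindle protein, by 0.57 ± 0.06 (adjusted p = 0.00613 and 0.00821). By group, 7 of 31 rose in shCBX8-1 and 21 of 31 in shCBX8-2, and 7 were higher in shCBX8-2 than in shCBX8-1. Over all genes 1.34%, 6.03% and 4.05% were called higher in these comparisons, in that order. The share of cycling cells was not measured, and its part in the tubulin and stathmin differences was not tested. As with the members, the calls of this list in the mean of both knockdown groups ended without any one control or shCBX8-1 library. They grew in number without either shCBX8-2 library. Calls over all genes fell and rose in the same omissions.

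**Figure D4:**
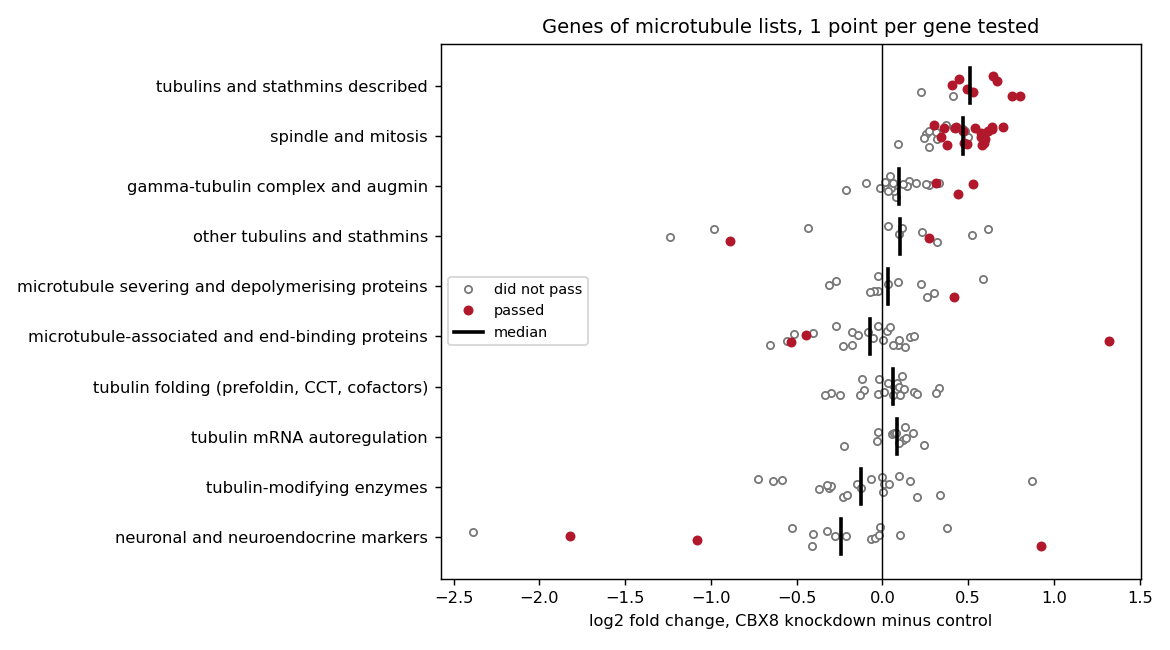
Log2 fold change of CBX8 knockdown minus control for each gene tested, by list, with filled points past an adjusted p of 0.05, open points that did not pass and a bar at the list's median. The 10 tubulins and stathmins and the 31 spindle and mitosis genes all lie right of 0, with medians of 0.51 and 0.47, and the medians of the other lists plotted run from -0.24 to 0.10.

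Marker lists of other cell types were summed per library beside these results. Epithelial markers summed to 22046 and 22066 CPM in shCBX8-1 and 27937 and 31554 CPM in shCBX8-2, against 24531 and 25410 CPM in control. In the mean of both knockdown groups 2 of 7 rose (KRT19 and CLDN4) and 1 fell (CDH1), beside 3.31% higher and 3.48% lower among all genes. KRT19 had 4.11 and 3.97 CPM in shCBX8-1 and 0.504 and 0.652 CPM in shCBX8-2, against 0.407 and 0.359 CPM in control. By group, KRT19 and CDH1 passed in shCBX8-1 alone and CLDN4 in shCBX8-2 alone. Of the 7, 1 rose and 1 fell in shCBX8-1, and 4 rose, CLDN4 among them, and 0 fell in shCBX8-2. Over all genes 1.34% rose and 1.13% fell in shCBX8-1, and 6.03% rose and 6.64% fell in shCBX8-2. Leukocyte markers summed to 137 to 141 CPM in shCBX8-1 and 108 to 112 CPM in shCBX8-2, against 89.4 to 92.3 CPM in control, nearly all of it CD68, a lysosomal protein that epithelial lines also express, and CORO1A, the 2 genes of the list that rose. Fibroblast markers summed to 8.46 to 9.17 CPM in shCBX8-1 and 5.55 to 6.19 CPM in shCBX8-2, against 11.99 to 14.5 CPM in control, with COL1A1 lower (-0.86 ± 0.15, adjusted p = 0.0235). Endothelial markers summed to under 6 CPM in every library, and 0 of the 2 tested passed, with 1 at an unadjusted p under 0.05 and 0 called by the DESeq2 Wald test. By group, CD68 passed in shCBX8-1 alone and COL1A1 in shCBX8-2 alone. The part of these marker lists in the tubulin and stathmin values was not tested.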

How the data were processed

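The authors deposited 1 table of estimated counts per RefSeq transcript (84787 entries), not scaled to a common total. The submitters' processing notes name the aligner HISAT2 2.2.1, the assembler StringTie 2.2.1, DESeq2 1.34.0 and hg38 without saying how each was used. The annotation, read length and strand setting behind the table were not found in the labels. Each count was already a whole number. Entries were matched to genes by the RefSeq table of GRCh38.p14 (83963) or GENCODE v29 (357), copy suffixes were dropped, and counts were summed per gene, leaving 467 unmatched entries on their own.

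Genes were tested with edgeR 4.0.16 in R 4.3.3: filterByExpr (minimum count 10, total 15), TMM scaling, and a quasi-likelihood model of 3 groups over 6 libraries with 3 residual degrees of freedom. P-values were two-sided, adjusted by Benjamini and Hochberg over 17115 genes, with a threshold of 0.05. The common dispersion was 0.0369. Standard errors came from the F statistic. Counting depth was 64197784 to 67169537 per library. No 2 libraries of a group agreed within sampling noise. The steps were tested on simulated data. Alternatives included the DESeq2 1.42.0 Wald test.

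The members and lists were chosen with earlier results of these data known. Named genes are the members, CBX8, up to 3 genes of smallest p per list, all other tubulins and stathmins, and 2 genes most like each member; likeness used log2(CPM + 1). UCHL1, KRT7, KRT8, KRT18, INA, ENO2, NEFL, SYP, REST and markers at 0 were named after their values were seen. Some sequences and 1 marker are not reported here.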

Additional observations from a re-analysis of the deposited data

Results flagged for a closer look

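Of the members, 4 differed between shCBX8-2 and shCBX8-1 by the test of that difference, and they did not all differ in 1 direction. STMN3 was lower in shCBX8-2, with 71.3 ± 3.22 CPM against 133 ± 8.43 CPM in shCBX8-1 (SD, n = 2; log2 difference -0.90, edgeR adjusted p = 0.00449). TUBA1C had 1490 ± 129 CPM in shCBX8-2 and 1101 ± 8.12 CPM in shCBX8-1 (0.44, adjusted p = 0.0233). TUBA1B had 3599 ± 290 CPM in shCBX8-2 and 2793 ± 103 CPM in shCBX8-1 (0.37, adjusted p = 0.0273), and TUBB4B had 1089 ± 112 CPM in shCBX8-2 and 848 ± 9.10 CPM in shCBX8-1 (0.36, adjusted p = 0.0441). With only the libraries compared the calls of TUBB4B and TUBA1B ended (adjusted p up to 0.0774), and with transcripts tested as deposited all 4 ended (0.239 to 0.326). CBX8 itself was higher in shCBX8-2 than in shCBX8-1 (1.02 ± 0.15, adjusted p = 0.0115), and its relation to these 4 differences was not tested.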

How the results depend on the processing

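For all genes, knockdown, shCBX8-1 and shCBX8-2 minus control and shCBX8-2 minus shCBX8-1 gave 1162, 423, 2169 and 1681 calls. With the DESeq2 Wald test these were 2441, 1477, 3560 and 2958, and with transcripts tested as deposited 0, 0, 0 and 1. Without 1 library at a time they ran from 1 to 4467, 0 to 2327, 139 to 5515 and 126 to 5104. Only the libraries compared gave 2426, 995 and 638 calls for the last 3, and the 4 knockdown libraries as 1 group gave 27 for the first. The cause of these shifts was not tested. Replicate numbers did not pair the samples (correlations of deviations of 0.0228, -0.021 and 0.0591), and a replicate block gave 696, 173, 1684 and 1082 calls and left 2 of 4 member calls in shCBX8-1 (TUBB4B and STMN3) and every other member call. For the members in knockdown minus control, all 8 calls stood with DESeq2 size factors, the Wald test (which called 10), no filter and without repeated accessions, and 0 with transcripts as deposited (adjusted p 0.249 to 0.297) or the knockdown libraries as 1 group (0.0757 to 0.312). In shCBX8-1 and shCBX8-2, transcripts as deposited also gave 0 member calls, and the libraries compared alone gave 10 and 7. In shCBX8-2 minus shCBX8-1, with 4 member calls, only the libraries compared left 2 (TUBA1C and STMN3, with adjusted p up to 0.0774 for the others), and transcripts as deposited left 0 (0.239 to 0.326). All 10 members kept a positive difference from control in every alternative. Without 1 library at a time the direction turned for these small values: in knockdown minus control TUBA3D ran from -0.12 to 1.72, TUBA8 from -0.083 to 0.13 and LYZ from -0.82 to 0.72, and in shCBX8-2 minus shCBX8-1 TUBB6 ran from -0.021 to 0.13 and STMN1 from -0.011 to 0.16.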
